A study of Mus musculus with 4 samples.

Results

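Transcripts for plasma proteins and other products of hepatocytes were followed through mouse ventricle that carried a serum response factor (SRF) transgene and through ventricle without it. The members were 46 genes, chosen by symbol after their lower signal in transgenic ventricle was already known from these arrays. A probe set was taken where the platform annotation gave it exactly 1 gene symbol and that symbol was on the list. This found 48 probe sets for 41 genes, of 12488 on the array (12422 without controls). Apoc3, Trf, C8a, Serpina3k and Ttc36 had no such probe set and were not analysed here.

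The transgenic group was 2 arrays of cardiac ventricle in which SRF was moderately overexpressed by a transgene specific to the heart. The non-transgenic group was 2 arrays of ventricle without the transgene. All mice were 6 months old, total RNA was the starting material, and each sample was 1 array. The labels name neither the promoter of the transgene nor the strain or the number of animals behind a sample. Whether the 2 arrays of a group are separate animals is not given either, so errors measure the spread between these samples only. The level of Srf was not analysed here.

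Hepatocytes make most of the proteins dissolved in blood plasma, among them albumin, apolipoproteins, clotting factors and protease inhibitors, and they carry the urea cycle and much of drug metabolism. Their genes are driven in liver by a small group of transcription factors that includes HNF1, HNF4 and the C/EBP family. SRF binds the CArG box and is known for the control of cytoskeletal, muscle and immediate early genes. Several members are also made outside liver: adipocytes make Rbp4, Hp and Ces1d, macrophages can make Arg1, and mucosal epithelia make Pigr.

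Promoter sequence from RefSeq (GRCm38.p6) is shown for 3 members, the 250 bases before the annotated start, because albumin and fibrinogen alpha hold the letters of an HNF1 site and hemopexin holds a CArG box, the element that SRF binds. Capitals mark the matches to any motif searched. The windows are chr5:90460620-90460869 on the plus strand for Alb, chr3:83025903-83026152 on the plus strand for Fga and chr7:105600117-105600366 on the minus strand for Hpx.
Alb: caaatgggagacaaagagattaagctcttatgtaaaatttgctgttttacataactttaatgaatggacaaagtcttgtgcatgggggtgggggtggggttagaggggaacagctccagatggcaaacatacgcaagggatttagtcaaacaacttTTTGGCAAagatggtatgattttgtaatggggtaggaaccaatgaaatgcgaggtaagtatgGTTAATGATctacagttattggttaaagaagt
Fga: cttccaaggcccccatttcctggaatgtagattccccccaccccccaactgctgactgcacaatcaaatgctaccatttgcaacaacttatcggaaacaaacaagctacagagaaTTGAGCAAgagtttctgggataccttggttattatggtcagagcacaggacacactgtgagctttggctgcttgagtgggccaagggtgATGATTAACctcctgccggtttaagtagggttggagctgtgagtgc
Hpx: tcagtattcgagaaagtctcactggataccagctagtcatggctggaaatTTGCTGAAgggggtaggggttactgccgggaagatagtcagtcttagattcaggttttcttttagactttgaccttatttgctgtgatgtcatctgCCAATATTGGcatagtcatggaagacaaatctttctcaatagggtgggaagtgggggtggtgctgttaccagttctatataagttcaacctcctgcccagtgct
Capitals in Alb, in order, are a C/EBP match on the other strand and an HNF1 match. Those in Fga are a C/EBP match and an HNF1 match, both on the other strand, and those in Hpx a C/EBP match and the CArG box.

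Motifs were searched on both strands of each 300-base promoter in the table, 250 bases before and 50 after the start. Of the members, 32 had a promoter there, 31 of them genes with a probe set. The HNF1 letters GTTAATNAT stood in 2 of 32 members (6.25%), Alb and Fga, against 0.940% of all 27025 genes with a promoter. The HNF4 letters CAAAGTCCA were found in 1 member, Cyp3a11 (3.12%, against 0.555% of all genes). The C/EBP letters TTGCNNAA stood in 11 members (34.4%, against 12.2%) and TATAAA in 10 (31.2%, against 15.7%). The CArG box stood in 2 members, Hpx and Serpinc1 (6.25%, against 1.81%), in Serpinc1 just after the start. No match of 1 motif shared bases with a match of another. A match describes these letters only and is neither a site nor a cause.

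Members also lay next to each other in the genome. Among RefSeq protein-coding genes, Fgg, Fga and Fgb followed one another with 0 genes between them on chromosome 3, as did Itih4, Itih3 and Itih1 on chromosome 14 and Serpina1c and Serpina1e on chromosome 12. Ahsg and Kng1 on chromosome 16 had 3 other genes between them. The paralogs Serpina1b, Serpina1c and Serpina1e shared an unbroken run of 69 bases in the 250 bases before their starts, at chr12:103738190-103738258, chr12:103904952-103905020 and chr12:103956950-103957018, all on the minus strand. It is shown as sequence that these paralogs have in common outside their transcripts.
Shared run of Serpina1b, Serpina1c and Serpina1e: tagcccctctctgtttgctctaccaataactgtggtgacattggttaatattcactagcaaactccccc

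Nearly every member probe set had its lower signal on the transgenic arrays. Both transgenic arrays lay below both non-transgenic arrays in 43 of the 48 member probe sets, while this held for 29.0% of all probe sets. The members were chosen on this contrast, so the count is a description and nothing is read from it. The median difference over the members was -2.16 on the log2(signal + 9) scale, transgenic minus non-transgenic, and -0.01 over all tested probe sets. Single probe sets ran from -5.16 for Mup3 to 0.20 for Hpd. The transgenic mean was 13% of the non-transgenic mean in the median member.

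The filter on dim probe sets, which left out the lowest 40% by mean over the 4 arrays, passed 32 member probe sets of 29 genes. Of these, 24 were lower in limma's fit over all 7453 tested probe sets at an adjusted p of 0.05, 0 were higher and 8 did not pass. The background was 3.86% of tested probe sets lower and 4.07% higher, and nothing is read from the members' share, since a member could pass the filter through the non-transgenic arrays alone. At an unadjusted p under 0.05, 30 members were lower and 0 higher. After median centring of the arrays the whole table gave 397 higher and 197 lower calls, against 303 and 288 as deposited.

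**Figure D1:**
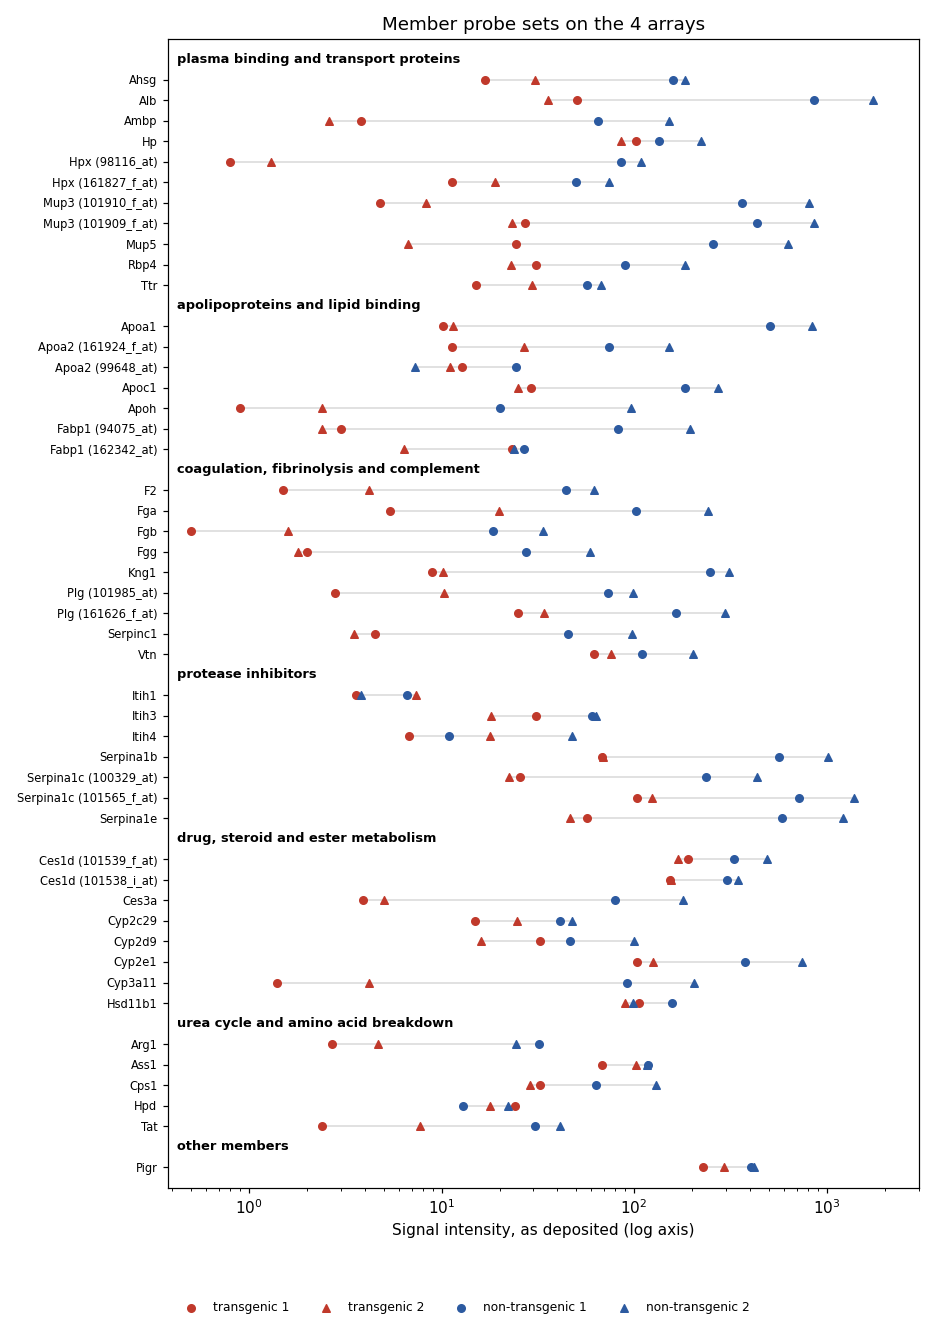
Signal of each member probe set on each array, as deposited, on a log axis, with genes grouped by role and the probe set ID given where a gene has more than 1. Transgenic arrays are red and non-transgenic arrays blue, and grey lines join the lowest and highest array. In 43 of 48 rows both red points lie left of both blue ones, which held for 29.0% of all probe sets.

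The plasma binding and transport proteins had the widest gaps of the 7 role groups by median, -3.17 over 11 probe sets of 9 genes. All 11 were lower without overlap, against 29.0% of all probe sets. Members were chosen on this contrast, so nothing is read from that count. Mup3, a major urinary protein that carries pheromones, had signals of 4.8 and 8.3 on the transgenic arrays, against 362.6 and 809.6 on the non-transgenic arrays (101910_f_at). Its other probe set read 27.0 and 23.3 in transgenic ventricle and 436.7 and 864.2 in non-transgenic ventricle (101909_f_at). In both, non-transgenic replicate 2 was about as far above non-transgenic replicate 1 as in the related Mup5, which had 24.3 and 6.7 on the transgenic arrays and 256.3 and 628.6 on the non-transgenic arrays. The IDs of these 3 probe sets mark a gene family, so they can share signal. The group's median counts each of them, and the protease inhibitors came close to it with a median of -3.05.

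Albumin, Alb, the main protein of plasma, had 50.3 and 35.7 in transgenic ventricle against 855.5 and 1737.5 in non-transgenic ventricle, a log2 difference of -4.58 ± 0.32 (moderated SE). Hemopexin, Hpx, which binds free heme, had 0.8 and 1.3 on the transgenic arrays and 85.9 and 109.0 on the non-transgenic arrays (98116_at). A second Hpx probe set, marked as a family match, kept 24.4% of the non-transgenic mean, against 1.08% for the first (161827_f_at). The transgenic signals of the first Hpx probe set lay below the 20th percentile of their arrays, 7.60 and 8.30, where signal is hard to tell from background.

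The other carriers also had the lower means in transgenic ventricle. Ambp, the precursor of a small plasma binding protein and of bikunin, averaged 3.20 ± 0.85 in transgenic and 108.8 ± 61.4 in non-transgenic ventricle (SD, n = 2 each). Fetuin-A, Ahsg, a carrier of mineral, averaged 23.6 ± 9.62 against 172.2 ± 17.4. For the retinol carrier Rbp4 the means were 27.0 ± 5.59 in transgenic and 137.2 ± 67.4 in non-transgenic ventricle. Transthyretin, Ttr, the carrier of thyroid hormone, averaged 22.3 ± 10.2 against 62.0 ± 7.0. Haptoglobin, Hp, which binds free hemoglobin, kept 52.8% of its non-transgenic mean, with 94.0 ± 12 in transgenic and 178.2 ± 62.0 in non-transgenic ventricle, and like Ttr it did not pass the fit.

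Apolipoproteins and the fatty acid binding protein of liver had a median difference of -2.38 over 7 probe sets of 5 genes. Apolipoprotein A1, Apoa1, the main protein of high-density lipoprotein, had 10.2 and 11.5 in transgenic ventricle and 505.3 and 836.4 in non-transgenic ventricle, which was -5.05 ± 0.25 on the log2 scale. Apoc1, carried on lipoproteins, read 29.0 and 24.8 on the transgenic arrays against 183.6 and 271.4 on the non-transgenic arrays. Fabp1, which binds fatty acids inside hepatocytes, had 3.0 and 2.4 against 82.3 and 194.8 (94075_at). A second, dim Fabp1 probe set gave 23.1 and 6.4 in transgenic and 26.9 and 23.9 in non-transgenic ventricle, a difference of -0.63 (162342_at).

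Apoh, beta-2-glycoprotein I, had 0.9 and 2.4 on the transgenic arrays and 20.1 and 96.4 on the non-transgenic arrays, which were 4.80-fold apart. The 2 probe sets of Apoa2, another protein of high-density lipoprotein, differed. One read 11.3 and 26.8 in transgenic against 74.1 and 151.0 in non-transgenic ventricle (161924_f_at). The other was dim throughout, at 12.8 and 11.1 in transgenic and 24.3 and 7.3 in non-transgenic ventricle, and its groups overlapped (99648_at).

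Genes of coagulation and fibrinolysis had a median difference of -2.55 over 9 probe sets of 8 genes. All 9 were lower without overlap, against 29.0% of all probe sets, and nothing is read from this count. Kininogen, Kng1, the source of bradykinin, had 8.9 and 10.2 in transgenic ventricle against 247.7 and 312.0 in non-transgenic ventricle. Fibrinogen alpha, Fga, had 5.4 and 19.9 on the transgenic arrays and 102.8 and 241.4 on the non-transgenic arrays. The beta and gamma chains, Fgb and Fgg, did not pass the filter. Their transgenic means were 1.05 ± 0.78 and 1.90 ± 0.14 and their non-transgenic means 25.9 ± 10.7 and 43.2 ± 22.2 (SD, n = 2 each). The 3 chains form 1 protein and are made together in hepatocytes.

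Plasminogen, Plg, whose active form dissolves fibrin, had 24.9 and 34.2 in transgenic and 164.5 and 295.4 in non-transgenic ventricle (161626_f_at). Its second probe set had 2.8 and 10.3 against 72.8 and 98.6 (101985_at), so both lay lower in transgenic ventricle. Antithrombin, Serpinc1, the inhibitor of thrombin, had 4.5 and 3.5 on the transgenic arrays and 45.4 and 97.3 on the non-transgenic arrays. Prothrombin, F2, averaged 2.85 ± 1.91 in transgenic and 53.0 ± 12.4 in non-transgenic ventricle. Vitronectin, Vtn, an adhesive protein of plasma and matrix, stood apart from these and kept 44.4% of its signal. It averaged 69.2 ± 10.1 in transgenic against 155.6 ± 65.5 in non-transgenic ventricle and was not called (adjusted p = 0.0788 in limma).

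Among the protease inhibitors, the Serpina1 genes for alpha-1-antitrypsin had wide gaps and the Itih genes did not. Serpina1e had 56.8 and 46.6 in transgenic against 584.6 and 1213.2 in non-transgenic ventricle, and Serpina1b had 68.2 and 69.3 against 566.1 and 1022.2. The probe sets of Serpina1c read 103.3 and 123.7 against 721.7 and 1385.2 (101565_f_at) and 25.5 and 22.5 against 235.8 and 434.2 (100329_at). All 4 probe sets had non-transgenic replicate 2 between 1.81 and 2.08 times replicate 1. They are near-identical genes, and 3 of these probe sets are marked as family matches, so they are not 4 independent measurements.

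The inter-alpha-trypsin inhibitor heavy chains, which bind hyaluronan, had signals near or below the array medians. Itih3 had 30.8 and 18.1 on the transgenic arrays and 60.4 and 63.7 on the non-transgenic arrays. Itih4 had 6.8 and 17.8 against 10.9 and 47.6, and Itih1 had 3.6 and 7.4 against 6.6 and 3.8. The groups overlapped for Itih4 and Itih1, and Itih1 had a positive difference (0.02). Itih3 was without overlap (-1.11) but was not called (adjusted p = 0.0550 in limma). Itih1 lay below the 20th percentile of each array, where signal is hard to tell from background. Its values therefore cannot show whether these neighbours on chromosome 14 share a pattern.

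Enzymes of drug, steroid and ester metabolism had differences between -3.65 and -0.33, with a median of -1.20 over 8 probe sets of 7 genes. Cyp3a11, a cytochrome that oxidises many drugs, had 1.4 and 4.2 in transgenic ventricle and 91.8 and 204.4 in non-transgenic ventricle. Ces3a, a carboxylesterase, had 3.9 and 5.0 on the transgenic arrays against 79.6 and 179.4 on the non-transgenic arrays. Cyp2e1, which oxidises ethanol, had 103.3 and 124.8 against 374.6 and 742.2, so that its transgenic signals stayed above the array medians of 49.05 and 50.7. Cyp2d9 had 32.5 and 16.1 in transgenic and 46.5 and 99.7 in non-transgenic ventricle and did not pass the fit. Cyp2c29 did not pass the filter and averaged 19.8 ± 6.79 against 44.4 ± 4.74.

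The 2 probe sets of Ces1d, a triglyceride hydrolase, had a moderate gap. They kept 43.8% (101539_f_at) and 47.6% (101538_i_at) of the non-transgenic mean, with 179.9 ± 14.3 in transgenic against 410.4 ± 111.3 in non-transgenic ventricle for the first (SD, n = 2 each). Hsd11b1, which regenerates active glucocorticoid, had 106.3 and 89.5 in transgenic and 157.4 and 98.9 in non-transgenic ventricle. Its groups overlapped, and its non-transgenic arrays ran the other way round from those of Cyp3a11, with replicate 2 the lower.

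Of the genes for urea synthesis and amino acid breakdown, 2 of 5 probe sets were tested and limma called 0 (1 at an unadjusted p under 0.05). Tat, tyrosine aminotransferase, had 2.4 and 7.7 on the transgenic arrays and 30.4 and 41.2 on the non-transgenic arrays, and Arg1, arginase, had 2.7 and 4.7 against 32.1 and 24.3. Both lay below the medians of all 4 arrays. Cps1, the first enzyme of the urea cycle, had 32.3 and 28.8 in transgenic against 63.5 and 130.3 in non-transgenic ventricle. Ass1, argininosuccinate synthase, which many cell types use, had 68.1 and 101.8 against 118.6 and 116.3 and kept 72.3% of its signal. Hpd, of tyrosine breakdown, had 24.2 and 17.9 in transgenic and 12.9 and 22.1 in non-transgenic ventricle, and its groups overlapped. Pigr, the receptor that carries IgA and IgM across epithelia, had 228.7 and 294.6 in transgenic against 403.0 and 420.7 in non-transgenic ventricle. Its difference was -0.65 ± 0.15 on the log2 scale.

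The size of the gap varied between members. In 31 probe sets of 27 genes the transgenic mean was under 25% of the non-transgenic mean, and in the other 17 it was 25% or more, a split made after the values were seen. The first set summed to signals of 642.4 and 712.3 on the transgenic arrays and 6667 and 12739 on the non-transgenic arrays. The other 17 summed to 1108 and 1151 in transgenic ventricle against 1908 and 2410 in non-transgenic ventricle. On the transgenic arrays 17 and 15 of the 48 probe sets lay below the 20th percentile of the array, against 1 and 2 on the non-transgenic arrays.

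The members were not chosen by the difference between the 2 arrays of a group, but this difference is not free of that choice. A high signal on non-transgenic replicate 2 raises the difference and also widens the gap on which members were chosen. The counts below are therefore a description. Between the non-transgenic arrays, replicate 2 was higher than replicate 1 in 42 of 48 member probe sets, with a median log2 difference of 0.76 and a median ratio of signals of 1.80. Over all tested probe sets the same difference had a median of -0.01 and replicate 2 was higher in 3555 of 7453. A ratio of at least 1.5 was found in 58.3% of the 48 member probe sets, which include dim ones, in 13.4% of all 12422 probe sets and in 5.42% of those that passed the filter. Between the transgenic arrays, replicate 2 was higher in 28 of 48 members, with a median log2 difference of 0.10, against 0.00 over all tested probe sets. For albumin the non-transgenic SD was 623.7 around a mean of 1296.5, with a transgenic SD of 10.3.

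**Figure D2:**
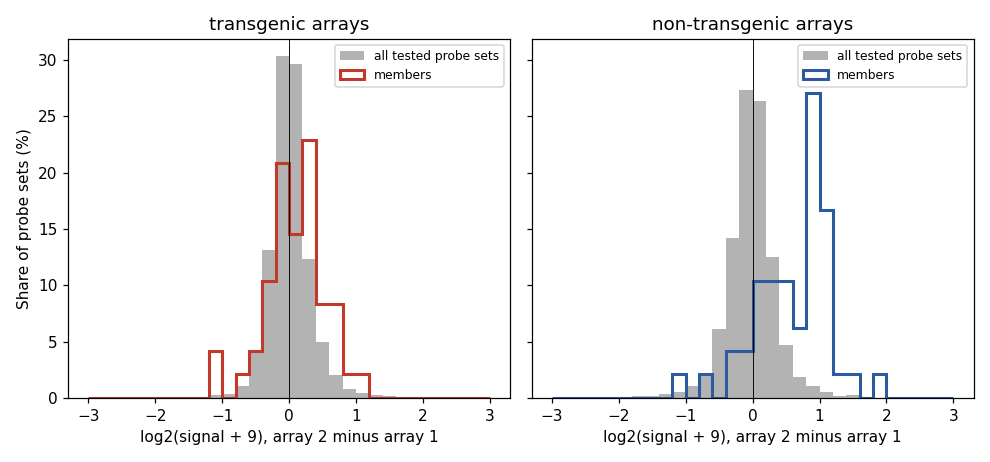
Share of probe sets (%) by the log2(signal + 9) difference of array 2 minus array 1, for transgenic arrays on the left and non-transgenic arrays on the right. Grey shows all 7453 tested probe sets and the coloured outline the 48 member probe sets, whose median was 0.10 between the transgenic and 0.76 between the non-transgenic arrays.

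The ratio of the non-transgenic arrays was not the same for all members. In the 31 probe sets with the widest gaps its median was 1.98 and the middle of the range, from the 25th to the 75th percentile of the log2 difference, ran from 0.51 to 1.06. It was 2.23 for Cyp3a11, 2.25 for Ces3a, 2.03 for Alb and 1.98 for Cyp2e1. A lower ratio was seen for Apoa1 (1.66), Apoc1 (1.48), Hpx (1.27), Kng1 (1.26) and Ahsg (1.15), and Arg1 was the 1 probe set of the 31 with replicate 2 below replicate 1 (0.757). In the 17 probe sets with smaller gaps the median ratio was 1.16, and 6 of them had a ratio of at least 1.5. It was 4.37 for Itih4, 2.14 for Cyp2d9, 2.05 for Cps1, 1.85 for Vtn and 1.65 for Hp, against 1.04 for Pigr, 0.981 for Ass1 and 0.628 for Hsd11b1. A high signal on non-transgenic replicate 2 raises this ratio and also widens the gap, so the 2 measures share an array and no link between them was tested. No liver array is part of the series, and signals of different probe sets cannot be set against each other, so members were compared with themselves across arrays and not with their order in liver.

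**Figure D3:**
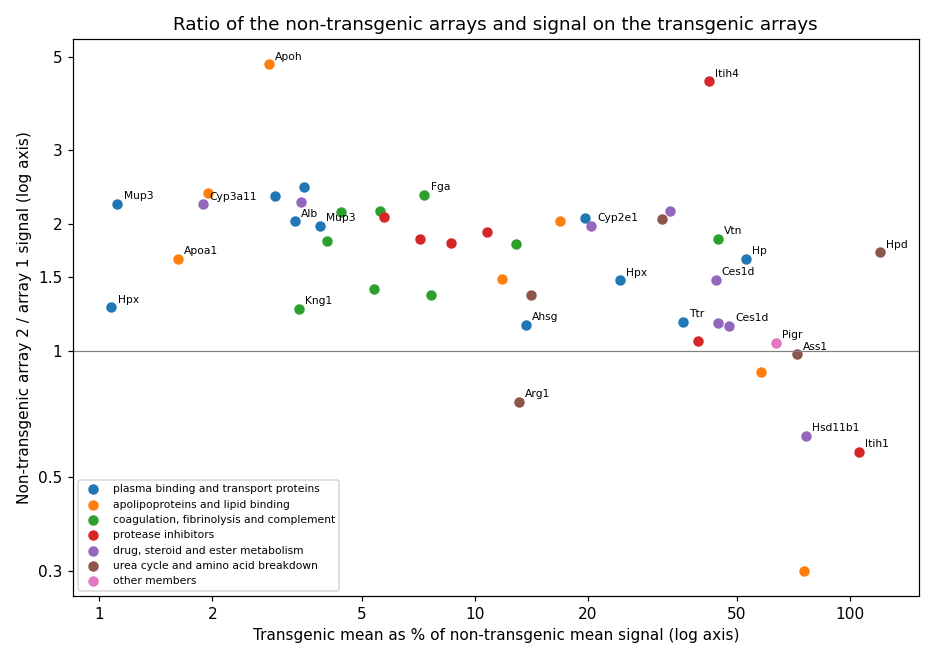
Each point is a member probe set, coloured by role, with the transgenic mean as a percent of the non-transgenic mean on the x axis and the ratio of non-transgenic array 2 over array 1 on the y axis, both on log axes. Both axes use non-transgenic array 2; the median ratio is 1.98 below 25% and 1.16 at 25% or more, where 6 of 17 still reach 1.5.

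Other liver genes were listed with earlier results of these arrays known. The members were chosen for their lower signal and these genes were not, so their medians are given as a description and not set against the members'. Of 57 probe sets for other plasma proteins of liver, 17 passed the filter, 2 were lower, 2 higher and 13 did not pass in limma's fit, with a median difference of -0.49. Non-transgenic replicate 2 was at least 1.5 times replicate 1 in 23 of the 57, against 13.4% of all probe sets. Most of the 57 were too dim to pass the filter, so this share is no like background for them. The 2 lower ones were both of Apoa5, a regulator of triglyceride. The larger difference had 4.6 and 23.8 in transgenic against 77.8 and 117.6 in non-transgenic ventricle (adjusted p = 0.0240 by limma after Benjamini-Hochberg adjustment). The other had 28.5 and 27.3 against 61.8 and 86.6 (adjusted p = 0.0345 in limma). Both calls were lost when non-transgenic replicate 2 was left out, and the other also when either transgenic array was. Serpinf1 and Serping1, made by many stromal cells, were higher, with 397.6 and 264.9 in transgenic against 114.0 and 122.7 in non-transgenic ventricle for Serpinf1 (adjusted p = 0.0110 in limma). A second Serpinf1 probe set ran the other way, at 105.3 and 153.2 against 206.3 and 113.0, and was not called. Serping1, the inhibitor of complement C1, had 1742.0 and 1514.5 in transgenic and 690.5 and 920.8 in non-transgenic ventricle.

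Of 46 probe sets for other metabolic enzymes of liver, 14 passed the filter, 4 were lower, 1 was higher and 9 did not pass, with a median difference of -0.67. Cyp2f2 had 20.5 and 20.5 in transgenic against 71.6 and 155.0 in non-transgenic ventricle (log2 difference -1.96 ± 0.34, adjusted p = 0.0193 in limma). The hydroxysteroid dehydrogenase Akr1c6 had 15.9 and 7.4 against 61.1 and 97.3 (adjusted p = 0.0147 in limma, and 0.0517 without non-transgenic replicate 2). Cyp2c38 was lower too, a call that was lost when non-transgenic replicate 2 or either transgenic array was left out (adjusted p up to 0.109 in limma). Cyp2b10, a cytochrome known for its induction by drugs, was the 1 higher gene, at 489.1 and 465.4 in transgenic against 218.0 and 222.5 in non-transgenic ventricle (1.08 ± 0.11, adjusted p = 0.00356 in limma). Fah, the last enzyme of tyrosine breakdown, named after its values were seen, had 257.8 and 258.3 in transgenic against 512.3 and 502.3 in non-transgenic ventricle (adjusted p = 0.00473 in limma), with a ratio of non-transgenic arrays of 0.980. That ratio was at least 1.5 in 27 of these 46 probe sets, against 13.4% of all probe sets and 5.42% of those that passed the filter. Most of the 46 did not pass the filter, so neither share is a like background for them. Among those below the filter, Gnmt had a difference of -2.78, Ugt2b5 of -2.63 and the smaller of the 2 probe sets of Cyp2d10 of -2.70.

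Transcription factors of liver were measured by 16 probe sets, of which 7 passed the filter and 0 were called in limma (0 at an unadjusted p under 0.05), with a median difference of -0.15. Hnf4a, which defines the hepatocyte, read 4.1 and 7.5 on the transgenic arrays and 8.7 and 6.6 on the non-transgenic arrays, below the 20th percentile of each array. Cebpa, which adipocytes also use, had 342.4 and 366.5 in transgenic and 309.4 and 408.5 in non-transgenic ventricle. The nuclear receptor Nr1i3 had 3 probe sets, all uncalled, with differences between -0.32 and 0.25. A low signal on these arrays does not separate an absent transcript from a probe set that responds weakly.

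Markers of other cells of liver gave no calls. Kupffer and sinusoidal cell markers summed to 116.1 and 128.6 on the transgenic arrays and to 145.2 and 98.3 on the non-transgenic arrays, with 0 of 2 tested probe sets called in limma (0 at an unadjusted p under 0.05). Fcna, a lectin of liver macrophages, had 42.5 and 42.5 in transgenic against 79.4 and 40.9 in non-transgenic ventricle. Lyve1, a marker of sinusoidal and lymphatic endothelium, had 50 and 50.6 in transgenic against 33.0 and 39.3 in non-transgenic ventricle, without overlap. Clec4f, the marker of mouse Kupffer cells, did not pass the filter on dim probe sets, and neither did the 4 bile duct probe sets, which summed to 33.7 and 40.5 in transgenic and 28.5 and 48.5 in non-transgenic ventricle. No marker probe set was listed at 0 on any array. Of 10 tested ventricular muscle probe sets 5 were lower in limma, and their sums with 1 untested probe set were 76299 and 77536 in transgenic against 95750 and 92932 in non-transgenic ventricle. Myl2, the ventricular regulatory light chain, had 9025.6 and 9760.3 in transgenic and 11572.0 and 11286.8 in non-transgenic ventricle. Its difference of -0.28 became 0.056 after quantile normalization. The calls of Myl2, Myh6 and Tnni3 were lost with that scaling (adjusted p = 0.572, 0.507 and 0.117 in limma). Those of Myl2 and Myh6 were also lost after median centring.

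Most fat cell markers had the lower signal in transgenic ventricle. Of 12 adipocyte probe sets 11 had a negative difference, against 7065 of all 12422 probe sets. In limma 3 of 6 tested were lower, those of Adipoq and Lpl, while Lep, Cidea and Fabp4 were tested and not called. Pparg, which did not pass the filter, had a positive difference (0.15). The summed signal was 4737 and 4964 in transgenic against 7132 and 6672 in non-transgenic ventricle. Adiponectin, Adipoq, had 73.8 and 74.6 on the transgenic arrays and 175.2 and 237.8 on the non-transgenic arrays (-1.36 ± 0.19, adjusted p = 0.00898 in limma). Most of that sum came from Lpl, a lipase that heart muscle also makes. Without its 2 probe sets, left out only once the values were known, the sums were 528.8 and 561.9 in transgenic against 802.7 and 977.9 in non-transgenic ventricle. Non-transgenic replicate 2 was above replicate 1 in 8 of the 12, against 5830 of all 12422 probe sets, and was at least 1.5 times replicate 1 in 3. The sum with Lpl was lower on replicate 2, and the sum without it was higher there. Fabp4, which marks fat cells and capillary endothelium, had 97.8 and 69.6 against 59.6 and 125.2. The part of fat cells in the signal of Rbp4, Hp, Ces1d and other members was not tested. In bulk tissue, fewer cells of a type and less RNA per cell cannot be told apart.

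Markers of pancreas, intestine, kidney and lung had medians between -0.20 and 0.11. All intestine and kidney probe sets were too dim to pass the filter and were not tested. Of the 7 tested, 5 of pancreas and 2 of lung, 0 were called in limma (2 at an unadjusted p under 0.05). Those at the unadjusted p were Ctrb1 and Ager, both with the higher signal in transgenic ventricle, and both were called after median centring. Macrophage and fibroblast markers were higher in transgenic ventricle, with 4 of 10 and 6 of 13 tested probe sets called higher and medians of 0.47 and 0.53, the opposite direction to the members. The macrophage protease Ctss had 369.6 and 283.7 in transgenic against 152.9 and 155.0 in non-transgenic ventricle (adjusted p = 0.0135 in limma). The part of these cells in the members' values was not tested.

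**Figure D4:**
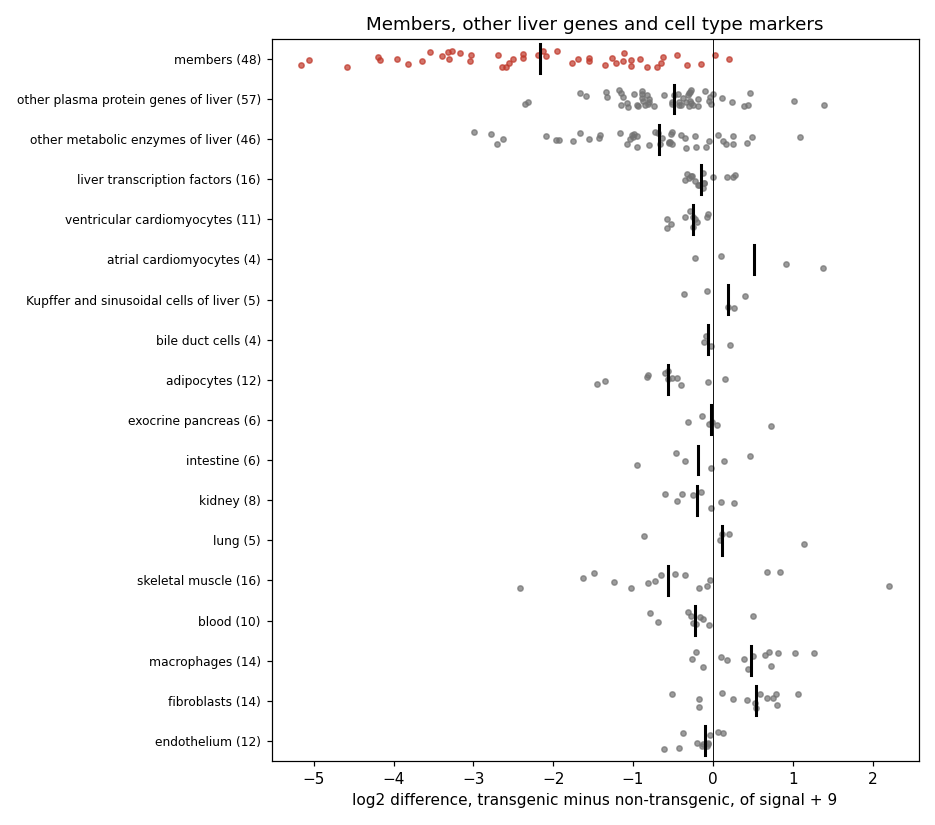
Each point is a probe set, placed by its log2(signal + 9) difference, transgenic minus non-transgenic, with black bars at the median of each list and the number of probe sets in brackets. Members, in red, were chosen on this contrast, so their place is no comparison with the other lists; the medians were -0.49 for other plasma protein genes, -0.67 for other enzymes and -0.15 for transcription factors of liver.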

How the data were processed

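Per the labels, total RNA of ventricle was biotin-labelled following the Affymetrix protocol. Each deposited value is the intensity of a probe set on 1 array, linear and above 0. Software, scaling and genome build: not given in the sources used here. Detection calls were not used. Global scaling, if used, hides a change shared by most RNA.

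Genes were named through the platform annotation (10833 probe sets had 1 symbol, 396 several and 1193 none listed); 66 control probe sets were left out. Probe sets whose IDs mark a family can mix related genes. Values were taken as log2(signal + 9), where 9 is the rounded 20th percentile of all values. This understates differences of dim genes. The lowest 40% by mean over the 4 arrays were not tested. Groups came from the labels, and the comparison used lmFit and then eBayes with a trend from limma 3.58.1 (R 4.3.3). Tests were two-sided and adjusted by Benjamini-Hochberg. The prior carried 5.05 degrees of freedom beside 2 residual ones. The fit was tested on simulated data.

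Every member was named. Values on each array were given for up to 4 genes per role group with the largest difference, and for members whose groups overlapped or whose difference was positive. Up to 4 genes per other list with the largest difference were eligible for naming, together with its defining markers. The members, lists and tests were chosen with earlier results of these data known. Precision is limited by the number of arrays, and dim or shared probe sets limit it further. Promoters and gene order came from RefSeq (GRCm38.p6). Alternatives were other pseudocounts, scalings, filters, variance models and thresholds, a block for replicate number, subsets of probe sets, and leaving out each array.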

Additional observations from a re-analysis of the deposited data

How the results depend on the processing

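The members' median log2 difference stayed negative under every alternative run. It was -2.87 with a pseudocount of 1 and -1.37 with a pseudocount of 32, -2.11 after quantile normalization, and ran from -2.59 to -1.67 when 1 array was left out, the smallest without non-transgenic replicate 2. The number of member probe sets called lower, 24 in all, ran from 21 to 27 when 1 array was left out. It was 15 with eBayes without a trend and 13 with only plain probe set IDs, which mark no family or shared match and leave fewer probe sets. None was called higher in limma in any of these. Over the whole table, leaving out 1 array gave 125 to 232 probe sets higher and 158 to 191 lower. Without the filter on dim probe sets the counts were 172 and 157, without a trend 44 and 34, and at an adjusted p threshold of 0.1 they were 477 and 484. Of the other liver lists 6 probe sets were lower. The number was 2 to 7 with 1 array left out (2 without non-transgenic replicate 2), 2 with the lowest 60% left out and 0 without a trend (15 at an unadjusted p under 0.05 in limma). The replicate numbers did not pair the arrays (correlation of deviations -0.06), and a replicate block gave 348 higher and 345 lower probe sets, with 28 members lower. Among single members the sign changed in 6 of 528 alternatives, for Apoa2 (99648_at), Itih1, Itih4 and Hpd, all dim. The cardiac marker Myl2 had a difference of 0.056 after quantile normalization, against -0.28 as deposited. The cause of these changes was not tested. No member's depth can be given for arrays; signals near the 20th percentile carry little information on size.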

Other observations

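A pattern like that of the widest member gaps was looked for in all other probe sets, with limits set after the values were seen: a non-transgenic mean of at least 50, non-transgenic replicate 2 at least 1.5 times replicate 1, and a transgenic mean under 25% of the non-transgenic mean. It was met by 43 probe sets, of which 20 were members. With the non-transgenic arrays exchanged in this rule it was met by 1 probe set, that of the protamine gene Prm3. The direction of the rule was taken from the members' own values, so neither count is a test and nothing is read from them. Of the 23 others, 13 had 1 gene symbol, 9 of them on the lists of other liver genes. Those were Apoc4, Apoa5, Cyp2f2, Akr1c6, Ugt2b5, Tdo2, Gnmt, which uses up methyl groups in liver, and both probe sets of Cyp2d10. Gnmt had 5.1 and 6.6 in transgenic against 72.2 and 118.8 in non-transgenic ventricle.

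The remaining 4 were Ces1c, a carboxylesterase of plasma, Pzp, a plasma inhibitor of proteases, Sec23b, a coat protein of transport vesicles, and Atp2a1, the calcium pump of fast skeletal muscle. Pzp had 23.3 and 15.5 on the transgenic arrays and 121.5 and 219.6 on the non-transgenic arrays. Atp2a1 had 2.2 and 2.6 against 32.2 and 81.1 (162223_f_at), and its second probe set had 39.4 and 68.2 in transgenic against 154.4 and 210.4 in non-transgenic ventricle (98126_s_at). The second was lower in limma (adjusted p = 0.0155), a call lost when non-transgenic replicate 2 was left out (0.0552). Of the 9 tested skeletal muscle probe sets 2 were lower, of Atp2a1 and Ckm, and 2 higher, of Acta1 and Myl1. Myl1, an alkali light chain of fast muscle, had 4522.3 and 4366.6 in transgenic against 924.5 and 989.6 in non-transgenic ventricle (adjusted p = 0.000108 in limma).

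Probe sets that carry several gene symbols were left out of the members, and 5 of them include a member's symbol. One for Serpina1a, Serpina1c and Serpina1d had 27.3 and 24.2 in transgenic against 469.8 and 960.4 in non-transgenic ventricle. One for Cyp3a11 and Cyp3a16 had 1.2 and 0.8 against 52.6 and 158.1.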
